A study of Mus musculus with 6 samples.

Results

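The ADAMTS genes encode secreted zinc metalloproteases that carry thrombospondin type 1 repeats and cut proteins of the extracellular matrix. Of the 9 genes listed by symbol for this description (Adamts1, Adamts2, Adamts4, Adamts5, Adamts7, Adamts9, Adamts10, Adamts12 and Adamts15), 8 had a probe set that the platform annotation assigned to that symbol alone, among 22180 genes in all. Adamts2 was not analysed here, since no probe set was named for it in the annotation used. Where a gene had several probe sets, one was to be chosen by its mean over the 6 arrays, but each of the 8 genes had 1 probe set, so this mean decided nothing. The list of genes was drawn up with earlier results of these arrays known. Its counts below are therefore descriptions, and they do not support a statement about the family.

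The samples were intestinal blood endothelial cells of mice, and each of 6 samples was hybridised to its own array. The 3 KO arrays came from Apcfl//fl mice that carried Villin-CreERT2, a tamoxifen-activated Cre under the promoter of villin, a gene of intestinal epithelial cells. The 3 control arrays came from mice labelled WT, Apcfl//fl, for which no Cre is named. All mice were of a mixed C57BL/6 x 129 background and all carried floxed Apc, a gene for a negative regulator of Wnt signalling. Both groups received tamoxifen under the skin on each of 5 days, with tissue collected on day 6. The labels give no age. Loss of Apc and the presence of an active Cre cannot be told apart in this design. The intestine was digested with collagenase, and live single cells that carried CD31 and lacked CD45, EpCAM and gp38 were sorted. The comparison asked how endothelium differs when the epithelium beside it has lost Apc.

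ADAMTS proteases are made with a propeptide that furin-type proteases remove, and sugars added to their thrombospondin repeats help several of them to be secreted. Members differ in substrate. ADAMTS1, ADAMTS4, ADAMTS5, ADAMTS9 and ADAMTS15 cut versican, aggrecan and related proteoglycans, ADAMTS7 and ADAMTS12 cut cartilage oligomeric matrix protein, and ADAMTS10 binds fibrillin microfibrils. TIMP3 is the best known inhibitor of several members. In vessels, ADAMTS1 also cuts thrombospondins and nidogens and can limit new vessel growth, and ADAMTS9 is made by microvascular endothelium.

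RefSeq promoter windows, running from 250 bases before to 50 bases after the annotated start, were available for 3 of the 8 measured genes. All 3 are shown. Of these genes Adamts9 and Adamts1 were higher in KO arrays and Adamts12 did not pass the test, while no window was available for Adamts4 and Adamts7. Each is written 5′ to 3′ on the gene's strand from build GRCm38.p6. The windows lie at chr6:92943485-92943784 (minus strand) for Adamts9, chr16:85803064-85803363 (minus strand) for Adamts1 and chr15:11064523-11064822 (plus strand) for Adamts12. Capitals mark TATAAA and GGGCGG, the TATA box and the GC box, found on either strand.
Adamts9: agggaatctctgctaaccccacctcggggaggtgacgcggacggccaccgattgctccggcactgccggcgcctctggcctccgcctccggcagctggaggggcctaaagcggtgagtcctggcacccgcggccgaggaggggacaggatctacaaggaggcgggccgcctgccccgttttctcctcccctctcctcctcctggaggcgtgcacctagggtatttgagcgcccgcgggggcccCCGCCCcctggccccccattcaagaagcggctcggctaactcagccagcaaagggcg
Adamts1: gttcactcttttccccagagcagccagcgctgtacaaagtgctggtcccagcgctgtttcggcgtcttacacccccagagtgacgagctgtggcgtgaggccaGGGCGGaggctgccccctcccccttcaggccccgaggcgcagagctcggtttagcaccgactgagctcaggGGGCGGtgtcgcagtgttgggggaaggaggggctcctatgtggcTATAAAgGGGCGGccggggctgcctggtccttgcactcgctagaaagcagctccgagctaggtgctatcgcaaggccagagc
Adamts12: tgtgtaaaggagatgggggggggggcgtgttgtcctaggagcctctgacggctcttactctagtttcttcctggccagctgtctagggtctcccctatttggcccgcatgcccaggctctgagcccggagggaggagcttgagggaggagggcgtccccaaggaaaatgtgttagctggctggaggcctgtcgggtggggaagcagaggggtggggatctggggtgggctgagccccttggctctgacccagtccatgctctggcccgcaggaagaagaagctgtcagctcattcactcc

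The promoter windows of Adamts9 and Adamts1, 2 of the 4 genes that were higher in KO arrays, differed from each other in these letters. Adamts1 held 1 TATA box beginning 32 bases before the start and 3 GC boxes beginning 147, 76 and 25 bases before it. Adamts9 held no TATA box and 1 GC box, which begins 7 bases before the start, and Adamts12 held neither motif. Among all 32851 promoter windows of the same length, 13.6% held the TATA box and 35.7% the GC box. The letters TGACG, the core that cyclic AMP response factors bind, occurred 1 time in each of the 3 windows and in 20.8% of all windows. An E-box, CANNTG, occurred 1 time in Adamts9, 1 time in Adamts12 and 0 times in Adamts1, and in 72.3% of all windows. The AP-1 motif TGANTCA was in none of the 3 windows and in 7.81% of all. These motifs do not overlap one another in the 3 windows. GC content was 70.0% for Adamts9, 64.7% for Adamts1 and 62.0% for Adamts12, against a median of 52.7% over all windows. A match describes the letters only, and binding was not measured.

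The deposited values are log2 values per probe set. The 8 genes were read within the fit over 15284 genes whose mean lay above background, a log2 value of 4.12 set by olfactory, vomeronasal and taste receptor genes. Array medians lay between 4.77 and 4.81. Correlations between arrays were 0.979 to 0.984 among KO arrays, 0.977 to 0.984 among control arrays and 0.964 to 0.974 across the groups. Log2 changes are KO minus control, ± after a change is the standard error of the limma fit, and adjusted p-values are those of limma with Benjamini-Hochberg adjustment over the 15284 genes, two-sided. Nothing in the labels says how many mice gave each sample, although the samples are called biological replicates. Apc itself was at a mean of 6.35 in KO and 6.50 in control endothelium (-0.16 ± 0.14, adjusted p = 0.65). The Cre driver targets epithelium and not the sorted cells, so this value does not check the labels, and the deletion itself was not measured here.

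Endothelial cells of KO mice had higher levels of 4 ADAMTS genes. Adamts9 was 3.19-fold higher, Adamts4 2.25-fold, Adamts7 1.69-fold and Adamts1 1.55-fold. Adamts5, Adamts10, Adamts12 and Adamts15 did not pass the test. Thus 4 of the 8 genes were higher and 0 lower at an adjusted p under 0.05, against 2.61% of all genes tested (1.13% higher and 1.48% lower). By limma at an unadjusted p under 0.05 the same 4 genes passed, against 16.4% of all genes. The median change of the 8 genes was 0.55, and that of all genes tested was -0.017. The KO and control arrays did not overlap for 4 of the 8 genes in the upward direction and for 1 in the downward direction, against 22.1% of all genes (9.79% upward and 12.3% downward).

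**Figure D1:**
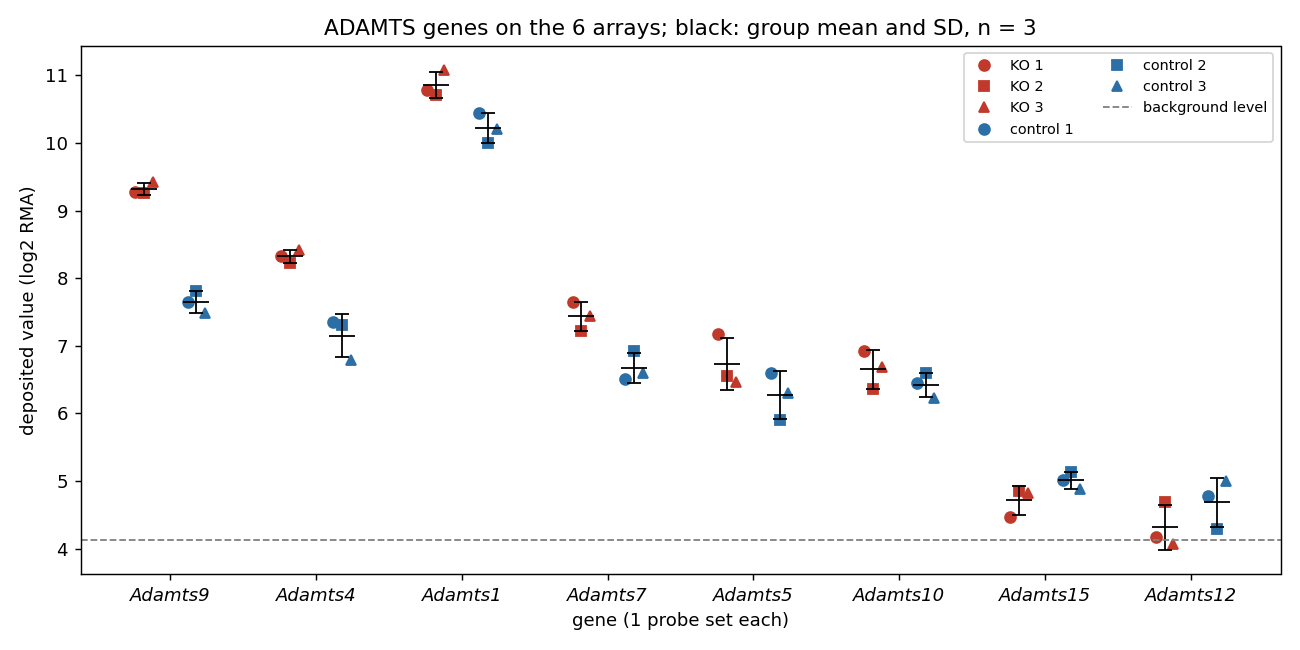
Deposited log2 values (vertical axis) of the 8 measured ADAMTS genes (horizontal axis), with KO arrays in red left of control arrays in blue. Bars show the group mean and SD over 3 arrays, and the dashed line is the background level of 4.12. All 3 KO arrays lie above all 3 control arrays for Adamts9, Adamts4, Adamts1 and Adamts7, and the groups overlap for Adamts5, Adamts10 and Adamts12.

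Among the proteases that cut proteoglycans, Adamts9 had the largest change. Its log2 values were 9.28, 9.25 and 9.43 in KO arrays 1 to 3, against 7.64, 7.81 and 7.48 in control arrays 1 to 3. The KO arrays lay within a narrow band, and the lowest of them was 1.44 above the highest control. The group means were 9.32 ± 0.093 in KO and 7.65 ± 0.17 in control arrays (SD, n = 3 each). The change was 1.67 ± 0.11 (95% interval 1.43 to 1.92, limma adjusted p = 0.000346), the 4th smallest p among the 15284 genes. Adamts9 passed in each of the 16 other settings of the fit, with changes of 1.59 to 1.76 and adjusted p-values from 0.000144 to 0.0198.

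Adamts4, which encodes an aggrecanase that also cuts versican, was at 8.32, 8.22 and 8.42 in KO arrays, against 7.35, 7.31 and 6.79 in control arrays. The KO arrays were again tight, with an SD of 0.096, while the controls had an SD of 0.31, with control 3 below controls 1 and 2. The lowest KO array was 0.87 above the highest control. The change was 1.17 ± 0.16 (95% interval 0.81 to 1.52, limma adjusted p = 0.00917). The call was lost without KO 3 (adjusted p = 0.0546) and when KO arrays were set against control 1 alone (0.97, adjusted p = 0.0747).

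Adamts1, the member that also cuts thrombospondins and nidogens, was at 10.79, 10.71 and 11.08 in KO arrays, against 10.45, 10.01 and 10.21 in control arrays. The groups did not overlap, but the gap between the lowest KO array and control 1, the highest control, was 0.26. The means were 10.86 ± 0.20 in KO and 10.22 ± 0.22 in control arrays (SD, n = 3 each), a change of 0.64 ± 0.13 (95% interval 0.35 to 0.92, limma adjusted p = 0.0365). The call was lost without any 1 of KO 1, KO 2, KO 3, control 2 or control 3, with adjusted p-values from 0.0596 to 0.121, and without the mean-variance trend (adjusted p = 0.103). With control 1 as the lone control, the change was 0.41 (adjusted p = 0.361).

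Adamts5 encodes the other main aggrecanase. By the RefSeq gene table it is the next protein-coding gene after Adamts1 on chromosome 16. It was at 7.17, 6.55 and 6.46 in KO arrays, against 6.60, 5.90 and 6.30 in control arrays. KO 1 stood above all other arrays, and KO 2 and KO 3 lay below control 1. The change was 0.46 ± 0.23 with a 95% interval of -0.064 to 0.99 (limma adjusted p = 0.372). The change was 0.24 without KO 1 and 0.13 against control 1 alone, neither of which passed.

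Adamts15, also a protease of aggrecan and versican, was the one measured gene whose groups did not overlap with KO arrays lower. Its values were 4.46, 4.85 and 4.83 in KO arrays, against 5.01, 5.14 and 4.89 in control arrays. KO 2 and KO 3 lay just below control 3. The change was -0.30 ± 0.15 (95% interval -0.65 to 0.051, limma adjusted p = 0.386). Its neighbour on chromosome 9, Adamts8, was at 4.67 in KO and 4.52 in control arrays, near background in both (0.16 ± 0.15, adjusted p = 0.662).

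Of the pair that cuts cartilage oligomeric matrix protein, Adamts7 was higher in KO arrays. It was at 7.64, 7.22 and 7.44 in KO arrays, against 6.51, 6.93 and 6.60 in control arrays. KO 2 and control 2 were the closest arrays of the groups, 0.29 apart. The change was 0.76 ± 0.16 (95% interval 0.40 to 1.11, limma adjusted p = 0.0429). The call was lost without any 1 of KO 1, KO 2, KO 3, control 1 or control 3 (adjusted p from 0.0556 to 0.139) and in the fit with control 1 as the lone control (adjusted p = 0.16). It was also lost without a background filter (adjusted p = 0.0568), without the mean-variance trend (adjusted p = 0.0756) and with a block for the replicate number (adjusted p = 0.0842).

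Adamts12 lay near background, at 4.18, 4.70 and 4.06 in KO arrays, against 4.77, 4.29 and 5.00 in control arrays. KO 3 was below the background level of 4.12, and KO 2 lay above control 2, so the groups overlapped. The change was -0.37 ± 0.22 (95% interval -0.88 to 0.13, limma adjusted p = 0.464). Comp, the gene for the shared substrate, was at 4.47 in KO and 4.51 in control arrays (adjusted p = 0.905).

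Adamts10, whose protein binds fibrillin microfibrils, was at 6.93, 6.35 and 6.68 in KO arrays, against 6.45, 6.59 and 6.23 in control arrays. The arrays of the groups were interleaved. The change was 0.23 ± 0.17 (95% interval -0.16 to 0.62, limma adjusted p = 0.574), so a change of either sign remained within the interval. The interval of Adamts5, in contrast to that of Adamts10, reached 0.99, so a change as large as that of Adamts7 lay inside it.

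The 8 genes did not share one order of arrays. KO 3 was the highest KO array for Adamts9, Adamts4 and Adamts1, and KO 1 was the highest for Adamts5, Adamts7 and Adamts10. KO 2 was the highest KO array for Adamts12 and Adamts15. Within-group SDs ran from 0.093 for Adamts9 to 0.39 for Adamts5 among KO arrays, and from 0.13 for Adamts15 to 0.36 for Adamts12 among control arrays.

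**Figure D2:**
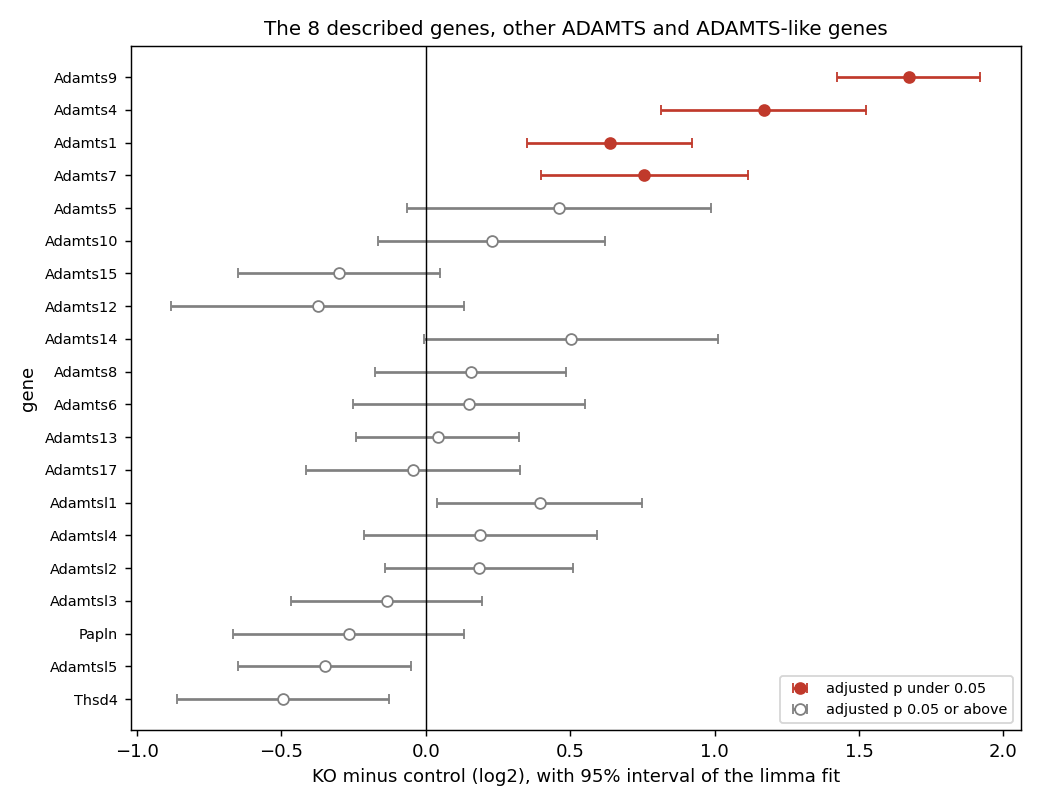
Log2 change, KO minus control, with its 95% interval (horizontal axis) for the 8 described genes, then 5 other ADAMTS genes and 7 ADAMTS-like genes above background (vertical axis). Red points passed an adjusted p of 0.05. The 4 red points are Adamts9, Adamts4, Adamts1 and Adamts7, and the intervals of Adamts5, Adamts10, Adamts15 and Adamts12 include 0.

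The rest of the family was little detected. Of 10 further ADAMTS genes, 5 were above background (Adamts6, Adamts8, Adamts13, Adamts14 and Adamts17), and by limma 0 of these passed, with 0 at an unadjusted p under 0.05 as well. Their median change was 0.15. Adamts14, a procollagen N-proteinase, came nearest, at 5.72, 4.78 and 5.18 in KO arrays, against 4.57, 4.80 and 4.80 in control arrays (0.50 ± 0.23, adjusted p = 0.313). KO 2 lay below controls 2 and 3, and on its other probe set the change was 0.12. Adamts3, Adamts16, Adamts18, Adamts19 and Adamts20 were below 4.12 on all 6 arrays.

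ADAMTS-like proteins and papilin keep the thrombospondin repeats but lack the protease domain. By limma 0 of their 7 genes passed, 3 had an unadjusted p under 0.05, and their median change was -0.14. Thsd4, which encodes a fibrillin-binding ADAMTS-like protein, was at 5.29, 5.47 and 5.09 in KO arrays, against 5.77, 5.98 and 5.59 in control arrays (-0.49 ± 0.16, adjusted p = 0.165). Adamtsl5 was at -0.35 ± 0.13 (adjusted p = 0.224) and Adamtsl1 at 0.39 ± 0.16 (adjusted p = 0.247). For each of these 3 genes the arrays of the groups did not overlap, 1 upward and 2 downward. Over all genes tested, the groups did not overlap for 22.1%, and 16.4% had an unadjusted p under 0.05.

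Genes for known substrates and partners were read beside the proteases from lists drawn up with earlier results known. Among the proteoglycan substrates no change passed the test. Of 12 genes for versican, aggrecan, related proteoglycans, hyaluronan synthases, link proteins and Cd44, 10 were above background. By limma 0 of the 10 passed, 0 had an unadjusted p under 0.05, and their median change was -0.0061. Vcan, for versican, averaged 5.25 in KO and 5.34 in control arrays (-0.097 ± 0.18, 95% interval -0.50 to 0.30). Has3, a hyaluronan synthase gene, was at -0.31 ± 0.16 (adjusted p = 0.4).

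A list of other substrates and partners held matricellular and basement membrane genes beside others such as Vwf and Vegfc. Of its 14 measured genes, 3 rose, 0 fell and 11 did not pass, with a median of 0.0027. Over all genes tested, 1.13% rose and 1.48% fell at an adjusted p under 0.05. Thbs1, for thrombospondin-1, a matrix protein that restrains vessel growth, was at 11.06, 11.29 and 11.12 in KO arrays, against 10.12, 9.96 and 9.78 in control arrays. Its change was 1.20 ± 0.095 (adjusted p = 0.000951). The nidogen genes Nid1 (0.88 ± 0.073, adjusted p = 0.00136) and Nid2 (0.89 ± 0.13, adjusted p = 0.0137), for basement membrane linkers, rose as well. Thrombospondin-1 and the nidogens are known substrates of ADAMTS1, but protein and cleavage were not measured here. Fbln1, for fibulin-1, a cofactor of ADAMTS1, was at -0.38 ± 0.14 (adjusted p = 0.199). The Nid2 call was lost without KO 3 (adjusted p = 0.0604), without control 3 (adjusted p = 0.0552), without the mean-variance trend (adjusted p = 0.0521) and with control 1 as the lone control (adjusted p = 0.198).

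Fibrillar procollagens are the substrates of the ADAMTS2 subgroup. Of 6 measured genes, 1 fell, 0 rose and 5 did not pass, with a median of -0.12. Among all genes tested, 1.48% fell. Col1a2 was at 7.85, 7.25 and 7.22 in KO arrays, against 8.45, 8.19 and 8.18 in control arrays (-0.83 ± 0.17, adjusted p = 0.0433). The change on its other probe set was -0.16, and with the mean of both it was -0.50 (adjusted p = 0.122). The Col1a2 call was lost in 9 of the 16 other settings, among them leaving out any 1 of KO 2, KO 3, control 1, control 2 or control 3 (adjusted p from 0.101 to 0.154). Col3a1 was at -0.52 ± 0.21 (adjusted p = 0.249).

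**Figure D3:**
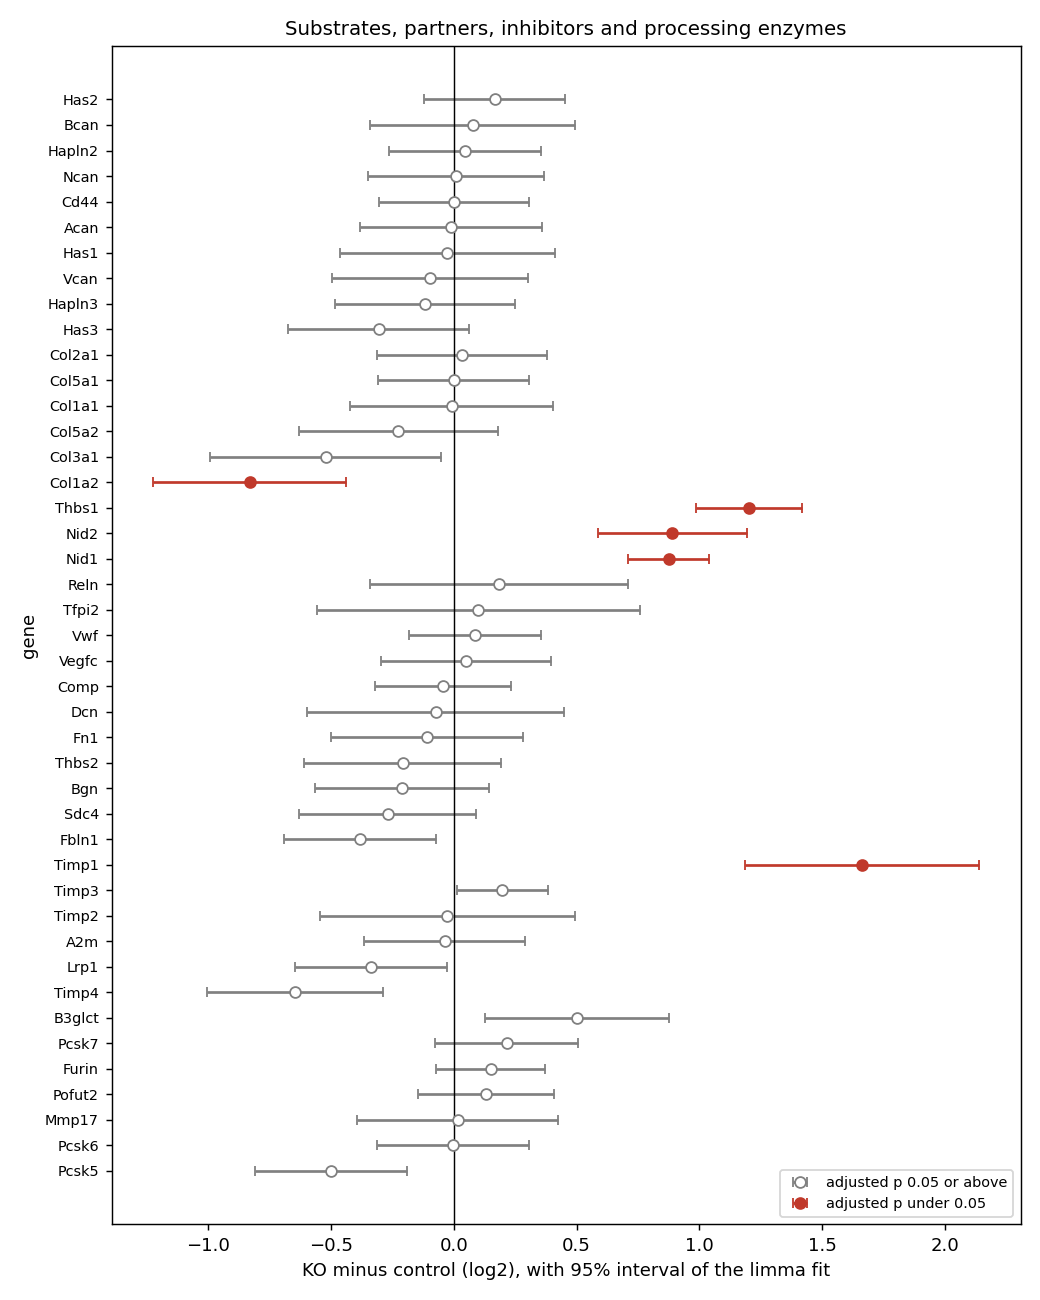
Log2 change, KO minus control, with its 95% interval (horizontal axis) for genes of substrates, partners, inhibitors and processing enzymes above background (vertical axis, in list order). Red points passed an adjusted p of 0.05. Thbs1, Nid2, Nid1 and Timp1 lie to the right of 0 and Col1a2 to the left.

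Of 6 genes for inhibitors and clearance, Timp1 rose, 0 fell and 5 did not pass, with a median of -0.032. Among all genes tested, 1.13% rose and 1.48% fell. By limma 4 of the 6 had an unadjusted p under 0.05, against 16.4% of all genes tested. The groups did not overlap for 1 gene upward and 2 downward, against 9.79% and 12.3% of all genes. Timp1 was at 7.22, 7.21 and 7.62 in KO arrays, against 5.83, 5.99 and 5.24 in control arrays (1.66 ± 0.21, adjusted p = 0.0079). TIMP1 chiefly inhibits matrix metalloproteinases and only weakly most ADAMTS enzymes. Timp3, for the main ADAMTS inhibitor, was at 11.79, 12.02 and 11.84 in KO arrays, against 11.73, 11.54 and 11.79 in control arrays (0.20 ± 0.081, 95% interval 0.014 to 0.38, adjusted p = 0.264). Timp4 was at -0.65 ± 0.16 (adjusted p = 0.071), and Lrp1, the receptor that takes up several ADAMTS enzymes, at -0.34 ± 0.14 (adjusted p = 0.256). The Timp1 call was lost against control 1 alone (adjusted p = 0.0587).

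Among processing enzymes, by limma 0 of 7 genes were called and 2 had an unadjusted p under 0.05, against 16.4% of all genes tested. Their median change was 0.13. B3glct, for the glucosyltransferase that extends the sugar on thrombospondin repeats, was at 0.50 ± 0.17 (adjusted p = 0.168), and its KO arrays, at 6.73, 6.90 and 6.80, lay above the controls, at 6.23, 6.64 and 6.06. Pcsk5, a proprotein convertase gene, was at -0.50 ± 0.14 (adjusted p = 0.101). Furin was at 0.15 ± 0.098 (adjusted p = 0.506).

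Genes with the most similar profile were found as the smallest root mean square difference in deviation from the gene's own mean over the 6 arrays, among 13382 named genes outside the lists. For Adamts9 they were Chrm2, a muscarinic acetylcholine receptor gene (0.12), Plaur, the urokinase receptor gene (0.20), and Stc1, a secreted glycoprotein gene (0.21). For Adamts4 they were the lipocalin gene Apod (0.15), Stc1 (0.18) and the endothelin receptor gene Ednrb (0.18). Adamts1 was nearest to Ppp1r13l (0.086), Eif2ak3 (0.098) and Pemt (0.098). Adamts7 was nearest to the translation factor gene Eif2s2 (0.076), the gap junction gene Gja1 (0.088) and Syne3 (0.092). The measure rests on the same 6 arrays and the same group difference, and it is a description.

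**Figure D4:**
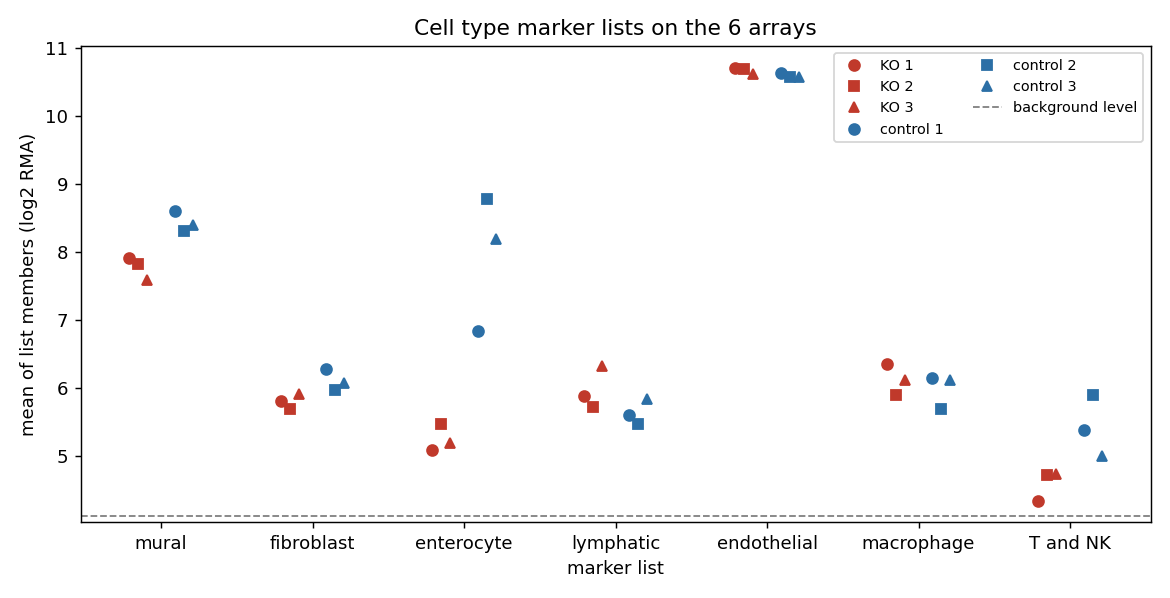
Mean log2 value of each cell type marker list (vertical axis) on the 6 arrays, for 7 lists (horizontal axis), with KO arrays in red left of control arrays in blue. The mural, fibroblast, enterocyte and T and NK means are lower on all 3 KO arrays than on any control array, and the endothelial means lie between 10.57 and 10.71 on all 6 arrays.

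Smooth muscle cells, pericytes and fibroblasts are known to make several ADAMTS proteases, so markers of other cell types are given beside these results. Fewer cells of a type and less RNA per cell cannot be told apart in bulk samples. The labelled cell type was checked first, and all 10 endothelial markers were above background on average. By limma 0 of them passed and 3 had an unadjusted p under 0.05, all 3 with KO arrays above all control arrays. These were Kdr (0.28 ± 0.064, adjusted p = 0.0549), Egfl7 (0.35 ± 0.084, adjusted p = 0.0685) and Esam (0.21 ± 0.068, adjusted p = 0.152). Emcn went the other way, with its KO arrays below all control arrays (-0.087 ± 0.046, adjusted p = 0.394). Over all genes tested, 16.4% had an unadjusted p under 0.05. The groups did not overlap for 9.79% upward and 12.3% downward. The list mean was 10.61 to 10.71 in KO arrays and 10.57 to 10.64 in control arrays. Pecam1, the gene for CD31, averaged 11.43 in both groups.

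Mural markers, for smooth muscle cells and pericytes, were above background in 12 of 12 genes. Of these, 6 fell and 0 rose, against 1.48% lower and 1.13% higher among all genes tested. The list mean was 7.59 to 7.91 in KO arrays and 8.31 to 8.61 in control arrays. The falls included Des (-1.04 ± 0.12, adjusted p = 0.00452), Acta2 (-0.82 ± 0.15, adjusted p = 0.029) and Rgs5 (-0.70 ± 0.13, adjusted p = 0.0258). The pericyte marker Abcc9 was at 0.49 ± 0.17 (adjusted p = 0.179), with its KO arrays above all control arrays. Of the 6 calls, that of Des held in all 16 other settings, while Tagln was lost in 2, Rgs5 in 6, Acta2 in 7, Notch3 in 8 and Cspg4 in 10. Fibroblast markers were above background in 11 of 12 genes, Lum not being so. Of the 11 changes, 8 were negative and 3 positive, the largest positive one being Pdgfra (0.48 ± 0.23, adjusted p = 0.35). Col1a2 was the 1 fall, and its call was lost in 9 of the 16 other settings. The fibroblast list mean was 5.70 to 5.91 in KO arrays and 5.98 to 6.29 in control arrays. Its largest change was that of Dpep1 (-1.26 ± 0.32, adjusted p = 0.0805), and the separation of the groups in this mean rests on that gene. Dpep1 was at 5.06, 5.52 and 4.93 in KO arrays, against 5.63, 6.94 and 6.72 in control arrays. The list means, the fibroblast one with Dpep1 included, thus ran opposite to the 4 ADAMTS genes that rose. They ran the same way as the values of Adamts12 and Adamts15. Their part in those values was not tested.

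Enterocyte markers were above background on average over the 6 arrays in 12 of 12 genes. Of these, 9 fell, against 1.48% of all genes tested. Of the 9, 5 (Apoa1, Fabp2, Krt20, Lct and Vil1) lost the call in 1 to 9 of the other settings. Epcam, for a marker that the sort excluded, was below background at 3.74, 3.75 and 3.81 in KO arrays and 3.87 in control 1. It was at 7.20 in control 2 and 6.24 in control 3 (adjusted p = 0.172). The list mean was 5.09 to 5.47 in KO arrays, against 6.84 in control 1, 8.78 in control 2 and 8.19 in control 3. Controls 2 and 3 thus stood apart from control 1. Control 1 in turn had the highest mural mean of the controls, 8.61 against 8.31 and 8.40 in controls 2 and 3. Its fibroblast mean was also the highest, 6.29 against 5.98 and 6.07. Against control 1 alone the changes were 1.68 for Adamts9, 0.97 for Adamts4, 0.93 for Adamts7 and 0.41 for Adamts1, and of these Adamts9 had an adjusted p of 0.0198 and the others did not pass. In that fit the spread comes from the 3 KO arrays, and the lone control is assumed to vary like them. Sis, not above background on any KO array, changed by -3.07 in the limma fit of all 6 arrays (adjusted p = 0.00884). With its KO arrays raised to the background level the difference was -2.76. That is a lower limit on the size of its fall, and it was not tested.

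Of 6 lymphatic endothelial markers measured, 2 rose, 0 fell and 4 did not pass, against 1.13% higher among all genes tested. The rises were Lyve1 (1.13 ± 0.23, adjusted p = 0.0406) and Flt4 (0.65 ± 0.091, adjusted p = 0.0104), and both are also made by other cells than lymphatic endothelium. The Lyve1 call was lost in 8 of the 16 other settings, among them leaving out any 1 of KO 2, KO 3, control 1, control 2 or control 3 (adjusted p from 0.0607 to 0.129). The Flt4 call was lost in 2, without KO 3 (adjusted p = 0.0546) and with control 1 as the lone control (adjusted p = 0.0783). Prox1, the defining transcription factor gene, was near background at 4.06, 4.88 and 4.33 in KO arrays, against 4.04, 4.28 and 4.77 in control arrays. Pdpn, for gp38, averaged 5.11 in KO and 5.42 in control arrays (adjusted p = 0.461). The list mean was 5.72 to 6.33 in KO arrays and 5.47 to 5.85 in control arrays, so the groups overlapped, and its part in the ADAMTS values was not tested.

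**Figure D5:**
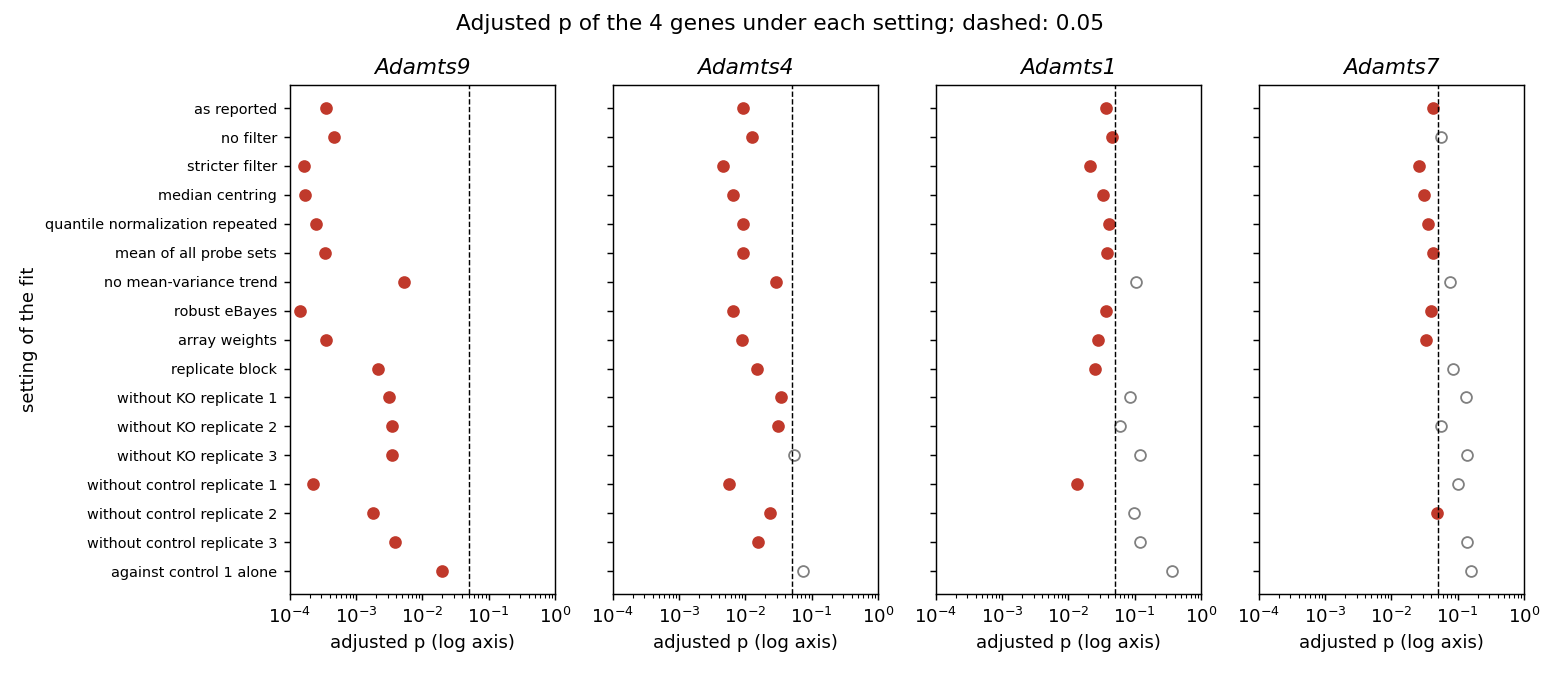
Adjusted p (horizontal log axis, the same for all panels) of Adamts9, Adamts4, Adamts1 and Adamts7 under the reported fit and 16 other settings (vertical axis). Filled points lie under the dashed line at 0.05. Every point of Adamts9 is filled, 2 of the 16 other settings are open for Adamts4, 7 for Adamts1 and 9 for Adamts7.

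The plot of adjusted p by setting shows how far the 4 calls differ in firmness. With each array left out in turn, Adamts9 passed all 6 times, Adamts4 5 times, and Adamts1 and Adamts7 1 time each. The sign of the change was the same in all settings for each of the 8 genes.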

How the data were processed

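The authors deposited log2 values per probe set from Affymetrix Mouse Gene 2.0 ST arrays. Per the submitters' processing notes, RMA in the oligo package made them. RMA corrects background, applies quantile normalization and summarises probes. Their versions are not given in the sources used here. RNA was amplified before labelling, per the labels' protocols. Arrays have no read depth, and 3 arrays per group limit the precision.

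Of 41345 probe sets, 23521 carried 1 gene symbol in the platform annotation, 1814 several and 16010 none. The last 2 classes were left out. Symbols were updated by gene identifier through RefSeq (GRCm38.p6), which matched 23328. The probe set with the highest mean stood for each of 22180 genes. Of these, 15284 passed a background level of 4.12, the 90th percentile of 1428 chemosensory receptor genes. The KO and control arrays entered one fit in limma 3.58.1, run in R 4.3.3 (lmFit, eBayes with a mean-variance trend, Benjamini-Hochberg, threshold 0.05). The fit was also run on simulated data with independent noise for each gene, which held no difference in cell content between arrays. That run does not check the calls made here. Plots used matplotlib 3.10.9 in Python 3.11.15.

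The members, gene lists, settings and the rule for named genes were chosen with earlier results of these data known. The rule admitted all members, Apc, called genes of the lists, up to 3 further genes with the smallest p per list (for marker lists the 3 brightest and the 3 with the smallest p) and, for each called member, the 3 genes nearest in profile. Prox1, Vcan, Furin, Comp, Abcc9, Pdgfra, Epcam, Cd3g and Gzmb were named outside the rule, after their values were seen. Alternatives covered the filter, the normalization, the probe set, the variance model, array weights, a replicate block, each array left out and control 1 alone.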

Additional observations from a re-analysis of the deposited data

How the results depend on the processing

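The direction of all 8 ADAMTS changes held in every one of the 16 other settings that could be fitted, and Adamts12 and Adamts15 were not above the stricter background level (6.16). Of the 8 genes, 4 passed in the reported fit. There were 2 without the mean-variance trend, 1 against control 1 alone, and 1 to 3 with each array left out in turn. The count over all genes was 399, and it was 139 without the trend, 52 against control 1 alone and 91 to 379 with each array left out. With fewer arrays the fit has fewer residual degrees of freedom. Without the trend, the cause of the lower count was not tested. Nothing in the labels says that the replicate number pairs animals. Deviations of same-numbered arrays correlated at -0.020, -0.0077 and 0.039, and those of differently numbered arrays at -0.032 to 0.034. These values do not settle whether arrays were paired. With the replicate block 3 of the 8 genes and 394 genes in all passed, and Adamts7 did not (adjusted p = 0.0842). Median centring gave 455 calls and the repeated quantile normalization 409, and both kept the 4 ADAMTS calls. Signal over background limits Adamts12 and Adamts15, which lie close to it.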

Other observations

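The remaining marker lists, for cells the sort should exclude, are given as values. Macrophage markers were above background in 8 of 8 genes, and by limma 0 passed and 0 had an unadjusted p under 0.05. Their list mean was 5.90 to 6.36 in KO arrays and 5.70 to 6.15 in control arrays. T and NK cell markers were above background in 7 of 7 genes found, and by limma 0 passed. Of the 7, 4 had an unadjusted p under 0.05, against 16.4% of all genes tested. Their mean was 4.35 to 4.74 in KO arrays and 5.00 to 5.90 in control arrays. Mesothelial markers had a mean of 4.99 to 5.02 in KO arrays and 5.13 to 5.25 in control arrays; by limma 0 of 4 passed and 1 had an unadjusted p under 0.05. Glial and neuronal markers had a mean of 3.99 to 4.36 in KO arrays and 4.14 to 4.51 in control arrays; by limma 0 of 3 passed and 0 had an unadjusted p under 0.05.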
